A study of Mus musculus with 12 samples.

Results

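The genes described here encode the proteins of 2 ribosomes of the mouse cell. Rows of the count table were taken by symbol: names beginning with Rpl or Rps and a number, with Rplp0, Rplp1, Rplp2 and Rpsa, for the cytosolic ribosome, and names beginning with Mrpl or Mrps and a number for the mitochondrial ribosome. Of 161 matching rows, 5 pseudogenes were left out (Rps4y2, Rps12l1, Rps12l2, Rps3a2 and Rps3a3), which left 156 of 39179 genes. They were 83 cytosolic genes, 32 for the small and 51 for the large subunit, and 73 mitochondrial genes, 26 for the small and 47 for the large subunit. Ribosomal proteins with names of another form, such as Dap3, Mrp63 and Fau, were outside the rule and are given as separate lists.

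The cytosolic ribosome translates nuclear-encoded mRNAs. Its proteins are made in the cytoplasm, enter the nucleolus and are built there onto rRNA, so that all of them are needed in about equal numbers, and many of their mRNAs begin with a run of pyrimidines (a 5′ terminal oligopyrimidine, or TOP, tract) through which growth signals control their translation. The mitochondrial ribosome is a separate machine that makes the few proteins encoded in mitochondrial DNA, all of them parts of the oxidative phosphorylation complexes. Its RNAs come from mitochondrial DNA, but all of its proteins are encoded in the nucleus and imported, and they include both relatives of bacterial ribosomal proteins and proteins found only in mitochondria.

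RNA was measured in pancreatic stellate cells (PSCs), the fibroblast precursors of the pancreas, which in culture are fibroblast-like. A mouse PSC line of C57BL/6 strain that carried mCherry was grown for 72 h alone (mono-PSCs), with PCC-EGFP, a mouse pancreatic cancer cell line (2W-PSCs), or with PCC-EGFP together with MØ-TagBFP, the RAW264.7 mouse macrophage line (3W-PSCs). All cultures had the same minimal medium and total number of cells, and each culture gave 4 libraries. All PSCs carried mCherry and were sorted on its presence and on the absence of EGFP and TagBFP. The PSCs were 1 immortalised clone, so the libraries are repeats of cultures and not of animals. Libraries were made by 3′ priming, which gives about 1 fragment per transcript, and values are counts scaled by library total and TMM factor to the usual unit CPM, which need no correction for length.

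Library totals ranged from 4561817 to 8093368 counts. Of 10 stellate and fibroblast markers, Col1a1, Col1a2 and Vim were each above 1000 CPM in every library, while Des and Lum stayed below 4 CPM. In 3W against mono, Col3a1 and Thy1 were called lower and Pdpn higher, and the summed level of the list was 4974 to 9152 CPM in mono-PSCs, 8350 to 8714 CPM with PCC, and 5405 to 6441 CPM in 3W-PSCs, below every 2W-PSC library as were the ribosomal sums. The summed CPM of 9 macrophage markers was 1.62 to 7.54 in mono-PSCs, 2.25 to 10.6 with PCC, and 7.56 to 41.8 in 3W-PSCs, and that of 10 epithelial markers 0.481 to 2.44, 74.4 to 145 and 50.3 to 88.6. Ptprc, Spi1, Laptm5 and Tyrobp of the macrophage list had no count in any mono-PSC or 2W-PSC library, and Cldn4, of the epithelial list, had none in any library. Epcam, Cldn7 and Esrp1 had no count in any 2W-PSC library and at most 0.382 CPM in 3W-PSCs, and Elf3 had at most 1.12 CPM in 2W-PSCs. The epithelial sum thus rested on Krt7, Krt8, Krt18, Krt19 and Cdh1. The part of macrophage and epithelial RNA in the differences below was not tested. The RNA encoded by mitochondrial DNA made up 4.82% ± 1.98 (SD, n = 4) of counts in mono-PSCs, 5.09% ± 1.57 in 2W-PSCs and 7.69% ± 0.350 in 3W-PSCs. Replicate 1 of mono-PSCs and replicate 2 of 2W-PSCs stood apart from the other libraries of their cultures for many ribosomal protein genes, and results are given with and without them.

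Genes were compared between cultures with edgeR's quasi-likelihood test, its p-values were adjusted after Benjamini and Hochberg across every gene in the fit, and a gene was called when its adjusted p was under 0.05. Of the 83 cytosolic genes, 80 passed the filter on low counts. Rpl10l and Rpl39l, relatives of Rpl10 and Rpl39 known from the testis, had no count in any library, and Rpl3l, the relative of Rpl3 known from striated muscle, had counts in 1 library. Of the 73 mitochondrial genes, 70 passed in the comparisons with 3W-PSCs and 69 in 2W against mono. Mrpl53 had no count, Mrps36 and Mrpl23 had at most 9 counts in a library, and Mrps28 passed only through 3W-PSCs, where it had 39 to 80 counts, so its difference was fixed in part by the filter.

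The cytosolic genes took 8.20% ± 1.39 of all counts in mono-PSCs, 7.78% ± 1.32 in 2W-PSCs and 6.68% ± 0.517 in 3W-PSCs (SD, n = 4). In mono-PSCs their summed level was 59255, 101120.0, 97268 and 75862 CPM in replicates 1 to 4. In 2W-PSCs it was 69481, 70964, 95714 and 85214 CPM, and in 3W-PSCs 67642, 62406, 60109.9 and 67638 CPM. All 3W-PSC libraries were below every 2W-PSC library and below 3 of the 4 mono-PSC libraries, but mono replicate 1 was lower than all of them. The means were 83376 ± 19546, 80343 ± 12462 and 64449 ± 3802 CPM. No p is given for a sum, because the members were chosen with results of these data known.

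The mitochondrial genes were about an order of magnitude lower in sum. Their summed level was 3539, 5451, 5383 and 4384 CPM in mono-PSCs, 3937, 4306, 4936 and 4588 CPM in 2W-PSCs and 3507, 3303, 3483 and 3611 CPM in 3W-PSCs. Again every 3W-PSC library was below every 2W-PSC library, and mono replicate 1 lay among the 3W-PSC libraries. The means were 4690 ± 909, 4442 ± 424 and 3476 ± 128 CPM, and the 3W-PSC mean was 0.741 of that in mono-PSCs, or 0.685 of it without mono replicate 1. The corresponding ratios for the cytosolic genes were 0.773 and 0.705. The cytosolic sum was 17.7 ± 0.802 times the mitochondrial sum in mono-PSCs, 18.02 ± 1.25 times in 2W-PSCs and 18.5 ± 0.889 times in 3W-PSCs, and the libraries of the 3 cultures overlapped in this ratio. In bulk RNA, fewer transcripts per cell and a smaller share of cells with many transcripts cannot be told apart.

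**Figure D1:**
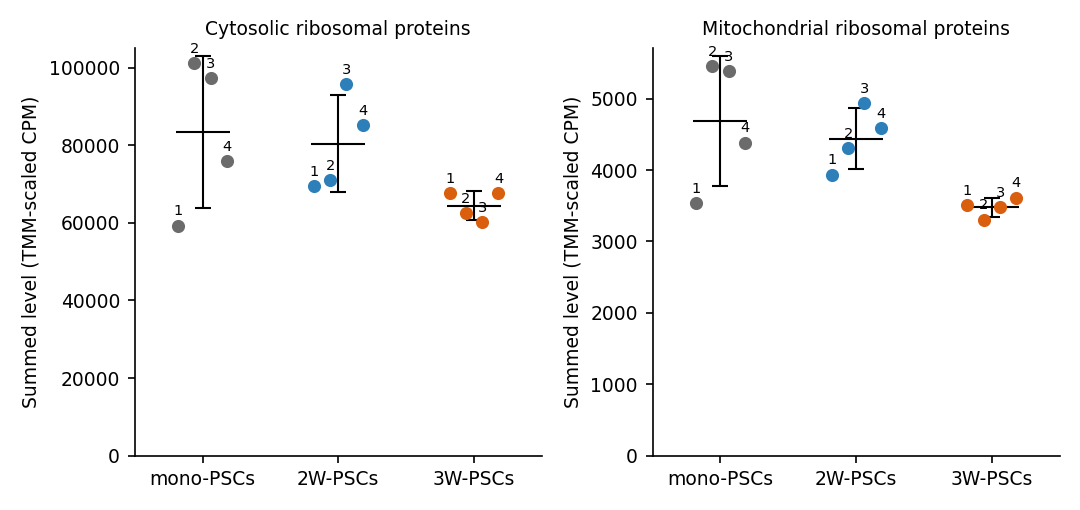
Summed level of the cytosolic (left) and mitochondrial (right) ribosomal protein genes in TMM-scaled CPM, 1 point per library with its replicate number, by culture. Horizontal bars are means and error bars SD (n = 4). Both sums were lowest and least spread in 3W-PSCs, at 64449 and 3476 CPM, and mono replicate 1 was as low as the 3W-PSC libraries.

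Within each ribosome the levels of single genes spanned more than the difference between cultures. Among tested cytosolic genes the mean over the 12 libraries ran from 25.8 CPM for Rps6, the small-subunit protein phosphorylated by S6 kinases, over a median of 734 CPM, to 4644 CPM for Rplp1, an acidic protein of the stalk that recruits elongation factors. Rplp1, Rps14 and Rps12 together made up 16.8% of the cytosolic sum. Among mitochondrial genes it ran from 4.19 CPM for Mrps28, over a median of 48.5 CPM, to 225 CPM for Mrps6. Mrps6, Mrpl33 and Mrpl54 had the highest levels and made up 12.6% of the mitochondrial sum. Of the 75-base windows at the 3′ end of Rps6, 90.1% also occur in other annotated genes. Reads that fit several genes equally are not assigned in common settings of gene counting. Rps12, among the highest genes, had 87.9% of its windows shared. Whether a low value meant low expression, and what part shared ends had in it, was not tested. The row named Rpl24 carries the identifier of another gene in the annotation used here, so its values (38.2 to 40.2 CPM in mono-PSCs) may not be those of Rpl24.

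The question of the co-culture with cancer cells alone was whether PSCs changed in 2W-PSCs against mono-PSCs. None of the 80 cytosolic and 69 mitochondrial genes tested was called, against 0.991% of all 11199 genes tested. None reached an unadjusted p under 0.05, which 7.4% of all genes did, and none was called by DESeq2, which called 1.62% of genes higher and 0.325% lower. The median log2 fold change was -0.02 for both ribosomes and 0.02 for all genes, but the cytosolic median was -0.28 without 2W replicate 3 and 0.07 without 2W replicate 2. Cytosolic genes ran from -0.36 for Rps7 to 0.45 for Rps23, a pair of small-subunit proteins, and mitochondrial genes from -0.38 for Mrpl22 to 0.65 for Mrps10. The lowest adjusted p over the members was 0.920 for the cytosolic and 0.887 for the mitochondrial ribosome. The spread between libraries in both cultures limits this comparison: the median SD of log2 CPM over the cytosolic genes was 0.36 in mono-PSCs and 0.49 in 2W-PSCs but 0.15 in 3W-PSCs.

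The joint presence of cancer cells and macrophages was examined by comparing 3W-PSCs with mono-PSCs. In 3W-PSCs, 26 of the 70 mitochondrial ribosomal protein genes tested were lower and 3 were higher, where 13% of all 11551 genes tested were called lower and 13.4% higher. Of the 80 cytosolic genes, 12 were lower and 5 higher, shares (15% and 6.25%) of which the first is near the background and the second below it. Without a threshold, 56 of 70 mitochondrial and 61 of 80 cytosolic genes had a log2 fold change below 0, against 49.1% of all genes. The median log2 fold change was -0.35 for the mitochondrial and -0.26 for the cytosolic genes, beside 0.01 for all genes. The called genes had log2 fold changes of -1.07 to -0.45 and 0.49 to 0.89 for the mitochondrial and of -1.002 to -0.49 and 0.57 to 1.01 for the cytosolic ribosome. With an absolute log2 fold change above 1 as a further condition, Mrps6, Rps14 and Rpl15 remained, beside 11.9% of all genes. DESeq2 called 27 mitochondrial and 19 cytosolic genes lower and 3 and 5 higher, beside 11.6% and 12.2% of all genes.

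**Figure D2:**
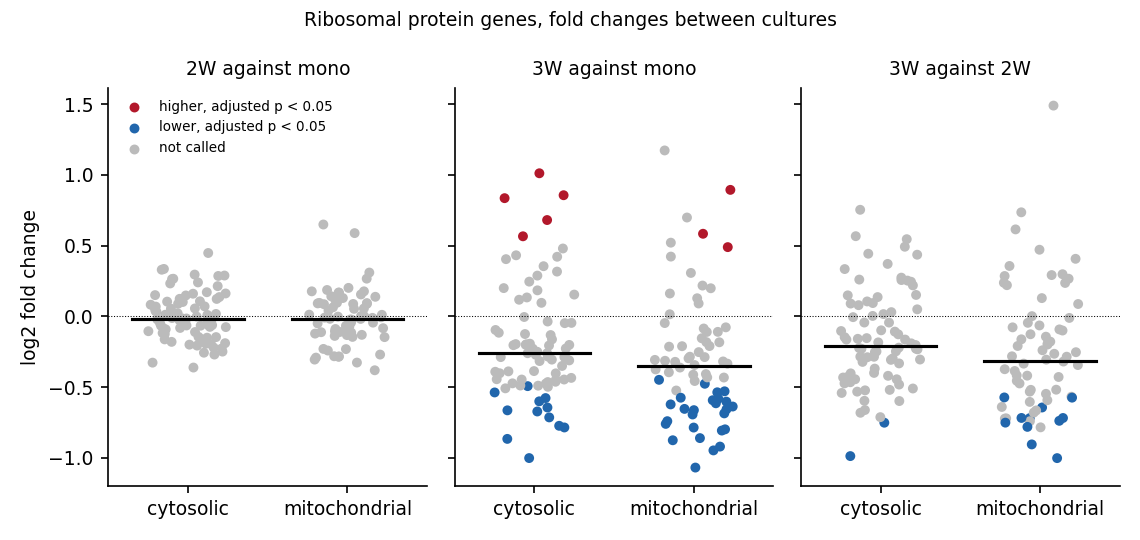
Log2 fold changes of the tested cytosolic and mitochondrial ribosomal protein genes in 2W against mono, 3W against mono and 3W against 2W, 1 point per gene, with the median as a bar. Red and blue points were called higher or lower (edgeR, adjusted p under 0.05). No gene was called in 2W against mono, and the medians were -0.26 and -0.35 in 3W against mono.

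Among the mitochondrial genes the greatest fall was that of Mrps6, a small-subunit protein of bacterial descent. It had 182, 358, 361 and 286 CPM in mono-PSCs, 193, 264, 262 and 224 CPM in 2W-PSCs, and 151, 125, 137 and 153 CPM in 3W-PSCs. All 3W-PSC libraries lay below all others. The log2 fold change was -1.07 ± 0.19 (SE) against mono-PSCs with an adjusted p of 0.000451 in edgeR, and a two-sided exact permutation test of the CPM gave p = 0.0286, the smallest that 4 against 4 libraries allow. The exons of Mrps6 (chr16:92058270-92112227, plus strand, GRCm38) share 305 bases with Gm49711 and Slc5a3 on the same strand.

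Mrpl14, a large-subunit protein that lies at the interface of the subunits, had 104, 234, 185 and 164 CPM in mono-PSCs, 131, 157, 194 and 184 CPM in 2W-PSCs, and 87.4, 85.5, 91.2 and 92.3 CPM in 3W-PSCs. Its 3W-PSC libraries were again below the other 8, and the log2 fold change from mono-PSCs was -0.95 ± 0.19 with an edgeR adjusted p of 0.00146. Mrpl28, of the large subunit, had 75.2, 171, 133 and 124 CPM in mono-PSCs and 60.3, 49.9, 85.9 and 69.5 CPM in 3W-PSCs. Here 1 library overlapped, mono replicate 1 lying below 3W replicate 3, and the log2 fold change was -0.92 ± 0.22 (adjusted p = 0.00436 in edgeR). Mrpl54, found only in mitochondria, had 113, 254, 214 and 159 CPM in mono-PSCs and 102, 108, 86.2 and 107 CPM in 3W-PSCs, which did not overlap (-0.88 ± 0.20 on the log2 scale, adjusted p = 0.00369 in edgeR).

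The other mitochondrial genes that fell and had the largest changes were Mrps33 (-0.86, called in 6 of 16 alternative fits), Mrpl48 (-0.81), Mrpl24 (-0.80) and Mrps23 (-0.79). Mrpl12, the protein that forms the mitochondrial stalk, fell by 0.60 on the log2 scale (SE 0.20, adjusted p = 0.0302 in edgeR, called in 8 of 16 alternative fits), and Mrpl41 fell by 0.74. Mrps12, a protein of the decoding centre, was not called (-0.40 ± 0.19, adjusted p = 0.127 in edgeR). In 13 of the 70 genes all 3W-PSC libraries lay below all mono-PSC libraries, and in 3 they lay above, beside 12.1% and 13.9% of all genes.

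The 3 mitochondrial genes that rose were Mrpl39, Mrps2 and Mrpl38. Mrps2, a small-subunit protein of bacterial descent, had 30.6, 25.01, 24.3 and 27.1 CPM in mono-PSCs, 31.3, 12.8, 31.3 and 29.1 CPM in 2W-PSCs and 39.0, 37.3, 41.3 and 43.7 CPM in 3W-PSCs. The 3W-PSC libraries were above the other 8, and the log2 fold change from mono-PSCs was 0.58 ± 0.17 (adjusted p = 0.0163 in edgeR). Mrpl39 had 30.3, 8.93, 26.5 and 12.9 CPM in mono-PSCs and 41.8, 33.96, 30.96 and 39.9 CPM in 3W-PSCs. The log2 fold change was 0.89 ± 0.29 (adjusted p = 0.0314 in edgeR). In 2W-PSCs Mrpl39 ran from 1.97 CPM in replicate 2 to 36.7 CPM in replicate 3, so its level differed 18.7-fold between libraries of 1 culture. Mrpl38 rose by 0.49 ± 0.16 on the log2 scale and was called in 8 of 16 alternative fits.

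Among the cytosolic genes Rps14, which lines the mRNA path of the small subunit, fell most. It had 2619.9, 7472, 5977 and 4279 CPM in mono-PSCs, 3369.8, 6767, 5042 and 4928 CPM in 2W-PSCs, and 2606, 2541, 2349 and 2666 CPM in 3W-PSCs. The 3W-PSC libraries were below all 2W-PSC libraries, and mono replicate 1 lay within their range. The log2 fold change from mono-PSCs was -1.002 ± 0.24 (adjusted p = 0.00491 in edgeR). Rpl13a, a large-subunit protein also known as part of the complex that silences inflammatory mRNAs in macrophages, had 833, 2235, 1788 and 1357 CPM in mono-PSCs and 1004, 840.4, 687 and 878 CPM in 3W-PSCs. Its log2 fold change was -0.87 ± 0.23 (adjusted p = 0.0103 in edgeR), with mono replicate 1 again among the 3W-PSC libraries. The other genes that fell were Rps7, Rps10, Rps12, Rps13 and Rps15 of the small subunit and Rpl22, Rpl26, Rpl31, Rpl36 and Rpl41 of the large one. For none of the 80 cytosolic genes did all 3W-PSC libraries lie below all mono-PSC libraries, beside 12.1% of all genes.

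The 5 cytosolic genes that rose were Rpl15, Rps23, Rpl7a, Rps2 and Rpl19. Rpl15, a core large-subunit protein, had 49.98, 19.1, 22.0 and 25.2 CPM in mono-PSCs and 63.9, 55.2, 71.1 and 45.6 CPM in 3W-PSCs (1.01 ± 0.26 on the log2 scale, adjusted p = 0.00740 in edgeR). Mono replicate 1 stood above the other mono-PSC libraries and overlapped with 3W-PSCs. Rps2, at the entry of the mRNA channel, had 809, 339, 655 and 422 CPM in mono-PSCs, 725, 52.6, 1264 and 409 CPM in 2W-PSCs, and 912, 885, 921 and 865 CPM in 3W-PSCs. Its 3W-PSC libraries were above every mono-PSC library (0.68 ± 0.22, adjusted p = 0.0286 in edgeR) and within the range of the 2W-PSC libraries, which differed 24.0-fold between replicates 2 and 3. In Rpl7a the 2W-PSC libraries ran from 15.2 to 451 CPM and the 3W-PSC libraries from 273 to 347 CPM, and in Rps23 from 39.8 to 327 CPM and from 164 to 242 CPM, so both had the same pattern. These genes were below most of the ribosome in level, at a median of 155 CPM where the 12 that fell had a median of 1081 CPM. Across genes, the log2 fold change and the log2 level had a Pearson correlation of -0.58 over the 80 cytosolic and -0.59 over the 70 mitochondrial genes, which share libraries and are not independent.

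**Figure D3:**
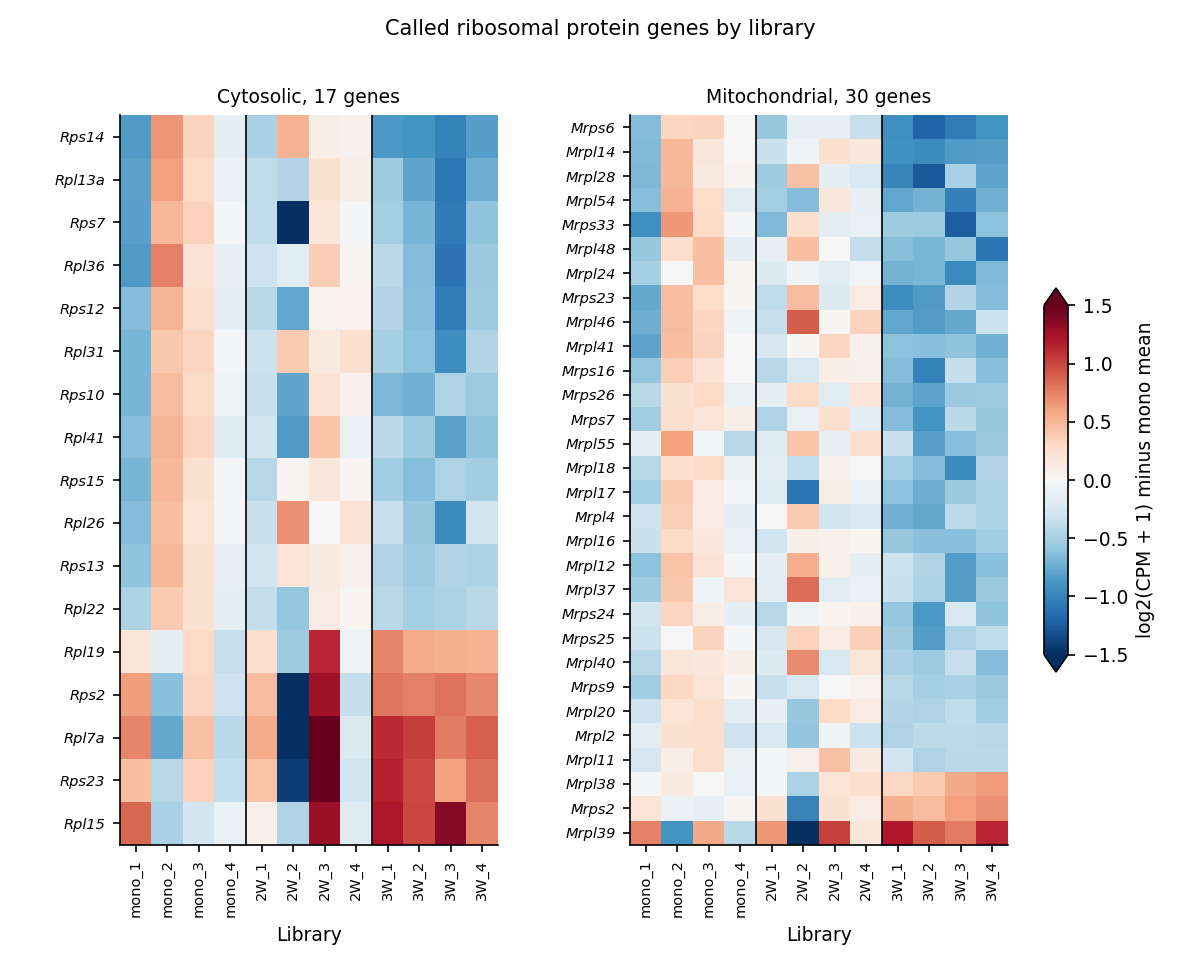
Level of each called cytosolic (left) and mitochondrial (right) ribosomal protein gene in the 12 libraries, as log2(CPM + 1) minus the mean of the mono-PSC libraries, for genes called in 3W against mono or 3W against 2W (17 and 30 genes), ordered by the fold change from mono-PSCs. Mono replicate 1 was low for the genes that fell, and Rps2, Rpl7a, Rps23 and Mrpl39, which rose, were lowest in 2W replicate 2.

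Promoter windows were read for the called genes because genes that moved in both directions could be set beside the sequence features of the 2 ribosomes. RefSeq windows on GRCm38.p6 of 300 bases, 250 before and 50 after the start, were found for 127 of the 156 members (63 cytosolic and 64 mitochondrial), and the first window of each symbol was used. The letters CCGGAAG, the core bound by ETS factors such as GABP, stood on either strand in 39.7% of cytosolic and 31.2% of mitochondrial windows and in 9.12% of all 27025 windows. The motif of NRF1 (GCGC, any base, then TGCGC), a regulator of nuclear genes for mitochondria, were in 7.94%, 18.8% and 4.78%, and AAGATGGC, of the YY1 type, in 7.94%, 17.2% and 2.88%. CTTTCC on the sense strand within 20 bases of the start was in 10 of 63 cytosolic windows (15.9%), in 0 of 64 mitochondrial and in 1.9% of all windows. Among cytosolic genes CCGGAAG was in 5 of the 10 lower genes with a window, 3 of the 5 higher ones and 17 of the 48 others. Among mitochondrial genes the NRF1 motif was in 5 of 24 lower, 1 of 2 higher and 6 of 38 other genes. These letters were chosen after the values were seen, and a match is not evidence of binding.

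The pieces printed run from 80 bases before the start to 25 after it, 5′ to 3′ on the strand of the gene, and the letters found are in capitals. They were chosen to show genes that fell (Rpl13a, Rps10, Rpl31, Rpl26, Mrpl14, Mrps26) beside genes that rose (Rpl15, Rpl19) with the same letters. In Rpl13a (chr7:45128721-45128825, minus strand), Rps10 (chr17:27635220-27635324, minus strand) and Rpl15 (chr14:18270962-18271066, minus strand) the last capitals are CTTTCC. They lie after the annotated start, at bases 10 to 15 in Rpl13a and 5 to 10 in Rps10 and Rpl15. Whether they belong to a TOP tract was not tested.
Rpl13a: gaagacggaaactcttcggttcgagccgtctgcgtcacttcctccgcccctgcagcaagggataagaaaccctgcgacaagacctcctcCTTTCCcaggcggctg
Rps10: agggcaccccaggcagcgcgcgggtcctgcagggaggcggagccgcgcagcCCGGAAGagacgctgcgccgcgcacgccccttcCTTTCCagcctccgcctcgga
Rpl15: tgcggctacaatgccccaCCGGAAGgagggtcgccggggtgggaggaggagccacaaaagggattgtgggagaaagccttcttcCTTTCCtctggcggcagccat
In Rpl19 (chr11:98026630-98026734, plus strand), Rpl31 (chr1:39367771-39367875, plus strand) and Rpl26 (chr11:68901486-68901590, plus strand) the capitals are CCGGAAG or its reverse complement, which also stands upstream in Rps10 and Rpl15.
Rpl19: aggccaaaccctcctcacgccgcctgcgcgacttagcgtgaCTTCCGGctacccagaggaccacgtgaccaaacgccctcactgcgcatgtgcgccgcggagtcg
Rpl31: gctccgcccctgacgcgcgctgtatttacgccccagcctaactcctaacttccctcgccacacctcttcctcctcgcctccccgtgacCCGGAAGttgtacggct
Rpl26: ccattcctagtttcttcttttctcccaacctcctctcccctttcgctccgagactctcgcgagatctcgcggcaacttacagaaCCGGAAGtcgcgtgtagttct
In Mrpl14 (chr17:45686269-45686373, plus strand) and Mrps26 (chr2:130563677-130563781, plus strand) the capitals near the start are the reverse complement of the NRF1 motif, which in Mrps26 occurs in 2 overlapping copies after a reverse CCGGAAG.
Mrpl14: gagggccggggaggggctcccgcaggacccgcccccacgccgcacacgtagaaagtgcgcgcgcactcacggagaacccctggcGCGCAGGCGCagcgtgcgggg
Mrps26: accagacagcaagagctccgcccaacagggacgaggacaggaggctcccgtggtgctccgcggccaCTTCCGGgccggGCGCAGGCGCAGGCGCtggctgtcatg
CTTTCC and CCGGAAG stood in printed cytosolic genes that fell and in ones that rose, which the choice of pieces fixed. CTTTCC was in 2 of 10 lower, 1 of 5 higher and 7 of 48 other cytosolic genes with a window. Among mitochondrial genes CCGGAAG was in 6 of 24 lower, 0 of 2 higher and 14 of 38 others. Whether these letters relate to direction was not tested.

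To set apart the step from cancer cells to cancer cells with macrophages, 3W-PSCs were compared with 2W-PSCs. Of 70 mitochondrial genes, 11 were lower and 0 higher, where 4.95% of all 11513 genes were called lower and 5.73% higher. Of 80 cytosolic genes, 2 were lower, Rps14 (-0.99 ± 0.21, adjusted p = 0.0151 in edgeR) and Rpl31 (-0.75 ± 0.20, adjusted p = 0.0329 in edgeR), and 0 were higher. Upwards, 0 cytosolic and 2 mitochondrial genes had an unadjusted p under 0.05, beside 13.1% of all genes, and DESeq2, which called 6.82% of all genes higher and 6.71% lower, called none of either ribosome higher and 12 cytosolic and 17 mitochondrial genes lower. The lower mitochondrial genes were Mrpl46 (-1.002), Mrpl14 (-0.91), Mrps23 (-0.75), Mrps6 (-0.74), Mrpl41, Mrps25, Mrps26, Mrpl24, Mrpl48, Mrpl16 and Mrpl11. The median log2 fold change was -0.31 for the mitochondrial and -0.21 for the cytosolic genes, beside 0.00 for all genes, and 54 and 55 genes were below 0, beside 49.8% of all genes. The cytosolic median rested on single 2W-PSC libraries, being -0.02 without 2W replicate 3 and -0.34 without 2W replicate 2. With the condition on fold change added, Mrpl46 alone remained, beside 5.84% of all genes. Of the 11 mitochondrial genes, 10 were also lower in 3W against mono (90.9% of these and 38.5% of the 26), as were both cytosolic genes, and the comparisons share the 3W-PSC libraries.

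Mrps26, a small-subunit protein found only in mitochondria, was lower in both. It had 48.6, 76.4, 80.03 and 60.4 CPM in mono-PSCs, 59.2, 79.4, 57.2 and 75.5 CPM in 2W-PSCs and 39.5, 37.3, 43.8 and 44.4 CPM in 3W-PSCs. The 3W-PSC libraries were below the other 8, with log2 fold changes of -0.69 ± 0.17 from mono-PSCs and -0.72 ± 0.17 from 2W-PSCs. Rpl31, a large-subunit protein at the exit of the peptide tunnel, had 703, 1509, 1429 and 1125 CPM in mono-PSCs, 912, 1495, 1268 and 1354 CPM in 2W-PSCs and 807, 748, 599.8 and 838 CPM in 3W-PSCs. The 3W-PSC libraries were below every 2W-PSC library, while mono replicate 1 lay within their range. In 22 of 70 mitochondrial and 10 of 80 cytosolic genes all 3W-PSC libraries were below all 2W-PSC libraries, beside 9.71% of all genes.

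The number of calls depended on single libraries. Mono replicate 1 was the lowest mono-PSC library for 58 of 80 cytosolic and 47 of 70 mitochondrial genes. Without it, 41 cytosolic genes were lower and 8 higher in 3W against mono, and 36 mitochondrial genes were lower and 5 higher, beside 17.4% and 18.9% of all genes. Without mono replicate 2 or mono replicate 3, in contrast, 2 cytosolic genes were lower, and 13 and 14 mitochondrial ones. Without 3W replicate 2 these were 3 and 10. The shares of all genes in these fits are not given here, so the lower counts cannot be read as particular to ribosomal protein genes. 2W replicate 2 was the lowest 2W-PSC library for 56 of 80 cytosolic genes, and 33 of them lay more than 1 log2 unit below the mean of the other 2W-PSC libraries (41.2%, beside 22.9% of the mitochondrial and 20% of all genes). Without it, 20 cytosolic and 20 mitochondrial genes were lower in 3W against 2W, beside 8.6% of all genes. Without 3W replicate 1 or 3W replicate 2 that comparison called 0 cytosolic and 1 mitochondrial gene, again with no share of all genes to set beside them.

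The spread within mono-PSCs was then set beside the difference between cultures. The difference of mono replicate 1 from mono replicate 2 was paired gene by gene with that of the 3W-PSC mean from the mean of mono replicates 3 and 4, so that no library entered both. Over the 80 cytosolic genes the Pearson correlation was 0.93, over the 70 mitochondrial genes 0.87, and over all 11551 genes tested 0.32. These are correlations across genes that share libraries, and genes are not replicates. Mono replicate 1 was below mono replicate 2 for 66 of the 80 cytosolic (82.5%) and 56 of the 70 mitochondrial genes (80%), beside 49.5% of all genes. Rpl15, Rpl7a and Rps2, which rose in 3W-PSCs, were higher in mono replicate 1 than in mono replicate 2. What set mono replicate 1 apart was not tested. The 3W-PSC libraries differed least among themselves: the SD was lower than in mono-PSCs for 70 of 80 cytosolic and 63 of 70 mitochondrial genes, beside 70.5% of all genes.

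**Figure D4:**
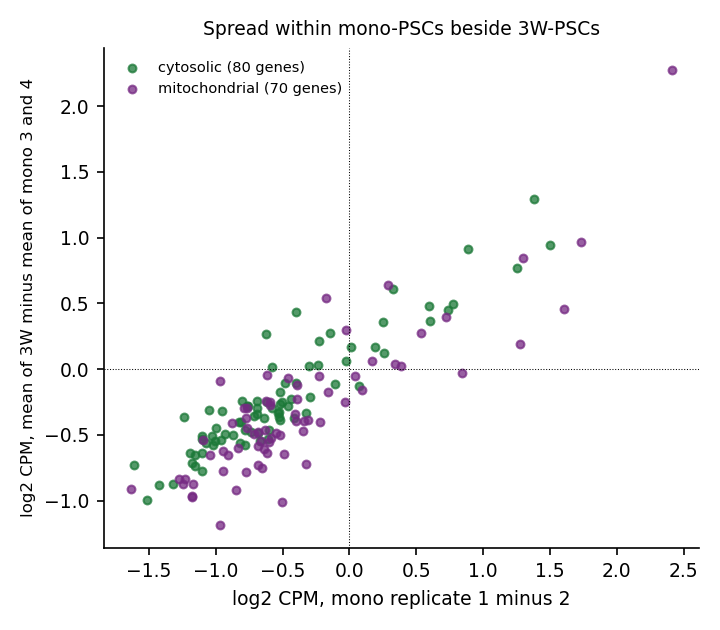
For each tested ribosomal protein gene, the log2 CPM of mono replicate 1 minus mono replicate 2 (x axis) and the mean log2 CPM of the 3W-PSC libraries minus the mean of mono replicates 3 and 4 (y axis). The axes share no library. Cytosolic (green) and mitochondrial (purple) genes lay along a common rising line, with Pearson correlations of 0.93 and 0.87.

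Ribosomal protein mRNAs have many processed pseudogenes, and reads that fit an identical copy elsewhere cannot be placed. Windows were matched on both strands, so a shared 3′ end can also be an overlap with another gene at the same place. The 2 kinds were not separated. Of 83 cytosolic genes 14 had a 3′ end with no 75-base window found in another annotated gene, and the median share of such windows was 44.4%. Of 73 mitochondrial genes 55 had none. Among the cytosolic genes with a unique 3′ end 12 were tested and 0 called in 3W against mono, where 1 reached an unadjusted p under 0.05 upwards and 2 downwards (19.2% and 19% of all genes) and DESeq2 called 1 lower, so that all 17 cytosolic calls by edgeR were in genes with shared 3′ ends. Their median log2 fold change was -0.20, beside -0.29 for the 68 others. Among the 55 mitochondrial genes with unique ends, 22 were lower and 3 higher, with a median of -0.36. Mrpl24 (89.5% of windows shared) and Mrps25 (100% shared) are the called mitochondrial genes for which the source of the reads is least certain. They have 594 and 4590 exonic bases opposite another gene.

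In 3W against mono, the median log2 fold change was -0.30 for the small and -0.23 for the large subunit of the cytosolic ribosome, with 6 genes lower in each, and -0.36 and -0.32 for the mitochondrial ribosome, with 9 of 25 and 17 of 45 genes lower. Mitochondrial proteins were classed by the number in their symbol, so single proteins may be in the wrong class. Those classed as bacterial type (15 of 41 lower, median -0.40) and those classed as found only in mitochondria (11 of 29 lower, median -0.33) were also lower in part. The difference between these classes was not tested.

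The stalk of the cytosolic ribosome, formed by Rplp0, Rplp1 and Rplp2, had log2 fold changes of -0.28, -0.50 and -0.45 in 3W against mono, none of them called. Rpl5 and Rpl11, which with 5S rRNA can bind Mdm2 and so stabilise p53, had -0.20 and -0.40 and were not called. The PSC clone was immortalised with SV40, and whether p53 acts in it was not tested. Rpsa, Rps3, Rps6 and Rps19 were not called either. Of the paralogue pairs, Rps27 had 557, 988, 848 and 733 CPM in mono-PSCs and 641, 623, 526 and 599 CPM in 3W-PSCs, while Rps27l, a p53 target, had 247, 326, 325 and 242 CPM in mono-PSCs and 352, 339.8, 476 and 359.9 CPM in 3W-PSCs. Rps27l libraries did not overlap between these cultures, and those of Rps27 did, but neither gene was called (adjusted p = 0.0655 and 0.105 in edgeR). Rpl22, at 1013 to 1855 CPM in mono-PSCs and 999.9 to 1060.5 CPM in 3W-PSCs, fell by 0.49 on the log2 scale (adjusted p = 0.0493 in edgeR), and its relative Rpl22l1 had a log2 fold change of -0.12 (adjusted p = 0.698 in edgeR). Rpl7l1, Rpl3, Rpl10, Rpl39 and Rps4x were not called.

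Other genes of ribosome production were read from lists chosen by function. Of 9 tested mitochondrial ribosomal proteins with names outside the rule, 5 were lower in 3W against mono and 0 higher, beside 13% and 13.4% of all genes. They were Mrp63, Ict1, Chchd1, Gadd45gip1 and Mrps18c, with log2 fold changes of -0.92 to -0.51. Mrp63 had 63.4, 121, 110.1 and 90.3 CPM in mono-PSCs, 82.8, 94.4, 100.002 and 100.3 CPM in 2W-PSCs and 43.5, 47.1, 56.9 and 55.6 CPM in 3W-PSCs, with no overlap between 3W-PSCs and the other cultures. Of 3 tested cytosolic ones edgeR and DESeq2 called none, with 1 higher at an unadjusted p under 0.05.

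Of 48 nucleolar assembly factors, which process rRNA and build the cytosolic subunits, 12 were higher, 0 lower and 36 not called in 3W against mono, where 13.4% of all genes were higher, and 4 had an unadjusted p under 0.05 downwards. The 12 were Gar1, Tcof1, Nob1, Sdad1, Ddx21, Tsr1, Noc2l, Ebna1bp2, Rrp1b, Nolc1, Mybbp1a and Ncl. Gar1, a protein of the particles that make pseudouridine in rRNA, had 51.4, 12.9, 32.6 and 22.4 CPM in mono-PSCs, 38.3, 0.492, 53.6 and 21.3 CPM in 2W-PSCs and 71.2, 81.6, 84.7 and 72.5 CPM in 3W-PSCs. Its 3W-PSC libraries were above all others (1.37 ± 0.28, adjusted p = 0.00161 in edgeR), and as for Rps2 its lowest value was in 2W replicate 2. Without mono replicate 1, 14 were higher and 5 lower, beside 18.9% and 17.4% of all genes. DESeq2 called 12 and 2, beside 12.2% and 11.6%. A fit to all 12 libraries called 6 and 0, for which no share of all genes is given here. In 3W against 2W edgeR called none of the 48, beside 5.73% of all genes higher and 4.95% lower. At an unadjusted p under 0.05, 7 were higher, beside 13.1% of all genes, and 1 was lower. There DESeq2 called 1 higher, beside 6.82% of all genes. Among subunits of RNA polymerases I and III, Polr1a, the largest subunit of polymerase I, was higher (0.81), and Polr3gl of polymerase III was lower (-0.73).

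Among growth regulators, 4 of 17 were higher and 2 lower in 3W against mono, beside 13.4% and 13% of all genes. Myc, which drives ribosome production, had 14.6, 1.39, 2.52 and 3.37 CPM in mono-PSCs, 7.16, 9.35, 14.8 and 4.00 CPM in 2W-PSCs and 27.7, 23.8, 47.8 and 12.7 CPM in 3W-PSCs (2.34 ± 0.52, adjusted p = 0.00288 in edgeR). Mono replicate 1 was the highest of the mono-PSC libraries for Myc and overlapped with 3W-PSCs. Larp1, the repressor that binds TOP mRNAs, was above its level in mono-PSCs (by 0.85 ± 0.21) and in 2W-PSCs (by 0.83 ± 0.22), as was Pabpc1, a TOP mRNA that encodes the poly(A)-binding protein (1.29 ± 0.23 and 1.23 ± 0.17). Of 14 TOP mRNAs that encode no ribosomal protein, Pabpc1 and Tpt1 (0.55) were higher and Eif3h (-0.64) was lower in 3W against mono. The shares of all genes were 13.4% and 13%, so these counts set the list little apart from the background. Rptor, of the mTOR complex, and Eif4ebp2 rose, and Eif4ebp1 and Mxd4 fell. Of 28 initiation factors, 4 were higher (Eif4a1, Eif3b, Eif4g1 and Eif3a) and 3 lower (Eif1ax, Eif1 and Eif2s2), which at 14.3% and 10.7% is near the background.

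For the mitochondrial ribosome, 0 of 14 translation factors were called in 3W against mono in edgeR, with 1 in each direction at an unadjusted p under 0.05, and DESeq2 called 0. Of 30 genes for its assembly and for expression of mitochondrial DNA, 3 were lower (Mrm1, Mpv17l2 and Fastkd2), a share of 10% where 13% of all genes were lower. Mpv17l2, which acts in assembly of the mitochondrial ribosome, had 38.1, 63.9, 61.6 and 61.5 CPM in mono-PSCs and 30.6, 23.5, 29.7 and 35.2 CPM in 3W-PSCs, and it was also lower than in 2W-PSCs. Of 8 regulators of nuclear genes for mitochondria, Pprc1 (1.22 ± 0.25) and Esrra (1.12 ± 0.38) were higher, beside 13.4% of all genes. Esrra was called in 10 of 15 alternative fits. Of 7 tested mRNAs that the mitochondrial ribosome translates, 4 were higher in 3W-PSCs, among them mt-Cytb (1.39 ± 0.27), and 0 lower. The shares of all genes were 13.4% and 13%. The mitochondrial rRNAs had log2 fold changes of 0.29 and 0.63 and were not called.

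**Figure D5:**
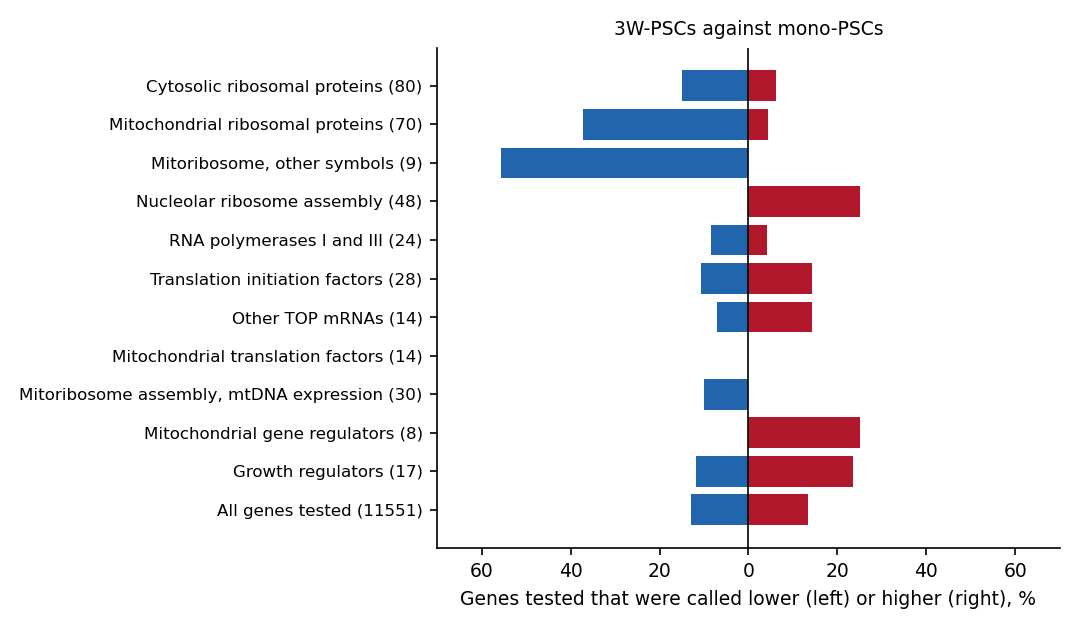
Share of tested genes called lower (blue, left) or higher (red, right) in 3W-PSCs against mono-PSCs for each gene list, with the number tested in parentheses and all genes tested as background. The mitochondrial ribosomal proteins (26 of 70) and those with other symbols (5 of 9) had the largest shares lower. Nucleolar assembly factors had 12 of 48 higher and 0 lower. Without mono replicate 1 they had 14 and 5, beside 18.9% and 17.4% of all genes.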

How the data were processed

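RNA of sorted PSCs from 12 cultures (4 each of mono, 2W and 3W) was sequenced by the authors with a 3′ kit, checked with FastQC, trimmed, aligned to GRCm38 with STAR and assigned to genes with featureCounts. The deposited values are whole-number counts per gene, although the study's methods speak of normalised counts, and were tested as counts. Whether molecular identifiers or strand were used in counting is not given in the sources used here. Totals were 4561817 to 8093368 counts, and p-values measure the spread between cultures of 1 clone.

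Each comparison was fitted to its 8 libraries with edgeR 4.0.16 (R 4.3.3, limma 3.58.1), using filterByExpr, TMM factors and the quasi-likelihood test without a block, with Benjamini-Hochberg adjustment over all genes tested. Exact permutation tests of CPM were two-sided. DESeq2 1.42.0, other scalings and filters, a replicate block, a fit to all 12 libraries and leaving out each library were alternatives, and the tests were tried on simulated data. The 3′ ends compared were the last 500 bases of GENCODE transcripts, in windows of 75 bases matched on both strands. Tables and figures were made with Python 3.11.15. Genes named were paralogue pairs, up to 8 called members per comparison, ribosome and direction by fold change, stalk and other proteins with known roles, the 3 highest members of each ribosome, and up to 3 called genes per other list and direction; the remaining called genes of a short list were added after their values were seen. The members and lists were chosen with earlier results of these data known. Some results on single genes are not reported here.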

Additional observations from a re-analysis of the deposited data

Results flagged for a closer look

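In 10 of the 156 groups of 4 libraries looked at (6.41%, where chance gives about 1 in 20), 1 library lay far from the other libraries of its culture by Dixon's criterion at its 95% critical value. In 3W-PSCs, replicate 3 was high for Rps27l at 476 CPM (others 339.8 to 359.9), and low for Rpl11 at 664 CPM (848 to 862), Mrpl24 at 52.7 CPM (62.9 to 65.0) and Mrps33 at 7.90 CPM (12.7 to 13.6). Also in 3W-PSCs, replicate 1 was high for Rpl19 at 202 CPM (174 to 178) and replicate 4 for Mrpl46 at 21.8 CPM (15.0 to 15.8). In 2W-PSCs, replicate 2 was low for Mrps2 at 12.8 CPM (29.1 to 31.3) and high for Mrps12 at 79.4 CPM (33.8 to 40.8), replicate 1 was low for Rpsa at 807 CPM (1034 to 1072), and replicate 3 was high for Rps6 at 34.3 CPM (21.2 to 22.9).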

How the results depend on the processing

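In 2W against mono no ribosomal protein gene was called under any alternative run. The number called in 3W against mono (17 cytosolic and 29 mitochondrial, both directions together) fell to 2 and 15 in a fit to all 12 libraries and to 2 and 1 with an absolute log2 fold change above 1, and ran from 6 to 49 and from 12 to 41 when 1 library was left out, highest without mono replicate 1. In 3W against 2W the 2 cytosolic and 11 mitochondrial calls became 12 and 17 with DESeq2, 1 and 5 with library totals alone and 0 and 1 with the fold condition, and the cytosolic count was 1 in the fit to all 12 libraries and 4 with upper-quartile factors. Leaving out 1 library gave 0 to 20 cytosolic and 1 to 20 mitochondrial calls there, highest without 2W replicate 2. Shares of all genes are not given here for the fit to all 12 libraries, the other scalings and most fits without 1 library. The changes in these counts therefore cannot be read as particular to ribosomal protein genes, and their cause was not tested. Without Gm26924 (12.2% to 15.4% of counts by culture) and the mitochondrially encoded genes, the cytosolic sums were 103382, 100937 and 79853 CPM and the mitochondrial ones 5817, 5580.02 and 4307 CPM in mono, 2W and 3W.

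With the replicate number as a block, 3W against 2W gave 1 cytosolic and 2 mitochondrial calls, and 3W against mono 14 and 26. The shares of all genes called with the block are not given here. Same-numbered libraries correlated by 0.0990 to 0.338 in 2W against mono, by 0.00263 to 0.107 in 3W against mono and by -0.0477 to 0.155 in 3W against 2W, and 6, 4 and 3 of 8 libraries correlated best with their own number. Since not every pair was above 0.1, the numbers were not taken to pair the samples, although 2W against mono came close to it.

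Rpl22, called at an adjusted p of 0.0493 in edgeR, was called in 4 of 16 alternatives, Mrps33, Polr3gl and Fastkd2 in 6, Mrpl12, Mrpl38, Mrm1 and Tpt1 in 8, and Rps2 in 9. In 3W against 2W, Mrpl48 was called in 5 of 16, Mrpl41 and Eif3h in 6, and Rpl31 and Mrps23 in 8. Mrps6, Mrpl14, Mrpl28, Mrpl54, Mrpl24, Mrps23, Mrps26, Rps14 and Rpl13a were called lower in 3W against mono in all 16. Mrpl53, Mrps36, Mrpl23 and Mrps28 had few counts or none, which limits what can be said of them. Of their 3′ windows, 100% were shared with another gene in Mrpl53, 99.5% in Mrpl23, 28.6% in Mrps36 and 0% in Mrps28. What part depth or shared ends had in the low counts was not tested. Shared 3′ ends could be examined over transcripts only, and intergenic copies were not analysed here.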
